A study of Drosophila melanogaster with 3 samples.

Results

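The heat shock and chaperone genes described here are 10 named Drosophila melanogaster genes, looked up by symbol in the Ensembl annotation of the dm6 genome, which holds 18164 genes on the chromosome arms. All 10 were found. Binding of HmgD, an abundant chromatin protein of the high-mobility-group class with a DNA-bending HMG box of low sequence specificity, was mapped at them by chromatin immunoprecipitation and sequencing (ChIP-seq) with an anti-GFP antibody. There was a single group of 3 biological replicates: whole embryos of mixed sex, 0 to 24 h old, from a transgenic line that stably expresses HmgD fused at its C terminus to green fluorescent protein. No heat shock or other treatment is named in the labels, and chromatin was sonicated to fragments of 200 to 800 bp. The embryos mix all cell types and stages of that interval, so binding in fewer cells and weaker binding in more cells cannot be told apart.

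Molecular chaperones bind unfolded or partly folded proteins and keep them from aggregating. Some are made in every cell at all times, while others are transcribed mainly when heat or another stress unfolds proteins. The heat shock factor HSF then binds heat shock elements, which are alternating GAA and TTC units upstream of the inducible genes, and in flies these promoters are known to be held open beforehand by GAGA factor and a paused RNA polymerase. Several fly small heat shock genes are also switched on in unstressed animals by the steroid hormone ecdysone.

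The members fall into 4 genes transcribed without stress and 6 that are mainly inducible, by textbook knowledge and not by these data. The constitutive genes are Hsp83, the fly Hsp90, Hsc70-4, the main cytosolic Hsp70 cognate, Hsf, which encodes the heat shock factor itself, and DnaJ-1, a J-domain (Hsp40) partner of Hsp70. The inducible genes are Hsp68, an Hsp70 family member, and the small heat shock genes Hsp22, Hsp23, Hsp26, Hsp27 and Hsp67Bc, whose products hold unfolded proteins without using ATP. Hsp83 and DnaJ-1 are expressed without stress and also rise on heating, so they were moved to the inducible class in an alternative.

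The promoter sequences below show what lies at or beside the HmgD summits that the results turn on. They were read from the Release 6 (dm6) genome of RefSeq, 5′ to 3′ on the strand of the gene, and positions count from the annotated transcription start site (TSS), negative upstream. Capitals mark matches on either strand to the heat shock element pairs GAANNTTC and TTCNNGAA, to GAGAG, the core of GAGA factor sites, or to TATCGATA, the core of the DNA replication-related element. The Hsp83 stretch is chr3L:3193137-3193166 (+ strand, positions -79 to -50 of the second TSS), 30 bases that hold its 1 GAANNTTC match near the IDR summit. The Hsc70-4 stretch is chr3R:15242468-15242668 (+ strand, -219 to -19), centred on its IDR summit. The DnaJ-1 stretch is chr3L:5752190-5752363 (- strand, -174 to -1), around a candidate below the IDR threshold. The Hsp68 stretch is chr3R:24057311-24057510 (- strand, -200 to -1), upstream of an IDR summit at +20. The Hsp27 stretch is chr3L:9383750-9383950 (+ strand, -313 to -113), centred on the only IDR peak of the small heat shock cluster. The Hsp26 stretch is chr3L:9377473-9377673 (- strand, -246 to -46), centred on a candidate that was not kept, and is shown for contrast.
Hsp83: agaagcctctaGAAGTTTCtagagacttcc
Hsc70-4: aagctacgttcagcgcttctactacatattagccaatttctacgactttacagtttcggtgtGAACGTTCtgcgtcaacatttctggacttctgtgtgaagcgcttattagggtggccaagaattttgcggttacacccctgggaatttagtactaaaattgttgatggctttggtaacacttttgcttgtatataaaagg
DnaJ-1: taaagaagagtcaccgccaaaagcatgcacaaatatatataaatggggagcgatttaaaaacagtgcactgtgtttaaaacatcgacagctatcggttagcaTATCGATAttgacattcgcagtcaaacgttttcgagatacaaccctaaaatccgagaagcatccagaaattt
Hsp68: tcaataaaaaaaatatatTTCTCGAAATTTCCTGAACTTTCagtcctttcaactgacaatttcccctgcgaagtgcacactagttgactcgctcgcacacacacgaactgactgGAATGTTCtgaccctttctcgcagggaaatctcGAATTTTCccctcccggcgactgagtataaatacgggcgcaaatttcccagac
Hsp27: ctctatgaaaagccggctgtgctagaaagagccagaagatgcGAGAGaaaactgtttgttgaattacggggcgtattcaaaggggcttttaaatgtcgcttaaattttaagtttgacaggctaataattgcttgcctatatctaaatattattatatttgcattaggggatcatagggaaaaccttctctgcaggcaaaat
Hsp26: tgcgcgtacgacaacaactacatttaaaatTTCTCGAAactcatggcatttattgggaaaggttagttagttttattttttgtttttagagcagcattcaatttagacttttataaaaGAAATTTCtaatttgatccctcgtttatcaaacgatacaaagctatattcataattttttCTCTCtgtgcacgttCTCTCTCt

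The candidate lists, which include background entries, held 28193 peaks in replicate 1, 30000 in replicate 2 and 30000 in replicate 3. The 3 replicates pooled gave another 30000 candidates. The authors' peaks passing the irreproducible discovery rate (IDR) step numbered 2964 and were exactly the 2964 pooled candidates of highest signal, the lowest at 114.7 and the highest candidate not kept at 114.6. The signal is the authors' own value per peak and is used here only to rank peaks within a list, with rank 1 the strongest. Without read counts in these lists, the depth behind a peak is unknown, and the control data were not used here.

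An IDR peak had its summit in the gene body or within 2 kb of it at 6 of the 10 members (60%), against 27.4% of all 18164 genes and 30.7% of the 13945 protein-coding genes. The constitutive class had 3 of 4 (Hsp83, Hsc70-4 and DnaJ-1, not Hsf) and the inducible class 3 of 6 (Hsp68, Hsp23 and Hsp27, not Hsp22, Hsp26 or Hsp67Bc). Within 500 bp of a member's own TSS the count was 4 of 10, against 15.5% of all genes, with Hsp83 and Hsc70-4 among the constitutive and Hsp68 and Hsp27 among the inducible genes. Every member had at least 1 pooled candidate in its window, as did 74.8% of all genes, so the presence of a candidate separates members from other genes little. No test was made of these counts, since the genes were chosen with results of these data known and neighbours share peaks. In peak sets rebuilt without each replicate in turn, Hsp83, DnaJ-1 and Hsp68 had a peak every time, and Hsc70-4 only without replicate 2. Hsf gained one without replicate 3, and Hsp23 and Hsp27 had none. For the site upstream of Hsp27, the loss without replicate 3 came from how summits were matched. Its ranks of 1893 in replicate 1 and 1328 in replicate 2 were high enough to be kept. The replicate 1 summit, at -79 from the Hsp27 TSS, was matched to a pooled candidate at -14 instead of the IDR peak at -213. The count within 500 bp of a TSS fell to 1 without replicate 1, 2 without replicate 2 and 2 without replicate 3, where 9.28%, 8.86% and 10.5% of all genes had such a peak.

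The 6 genes had 8 distinct IDR peaks between them, because Hsp23 and Hsp27 share 1. For 5 of the 8 the nearest TSS was a member's own, and for 3 it was that of a neighbouring gene, CG14966, Usp47 or SMC1. Of the 8 summits, 5 lay between genes, 3 in 5′ untranslated sequence and none in coding sequence, where 1.92% of all IDR summits lay. Of the 34 further candidates in the member windows that were not kept, 19 lay in coding sequence (30.0% of all candidates not kept did), 7 between genes, 4 in introns and 4 in 5′ untranslated sequence.

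**Figure D1:**
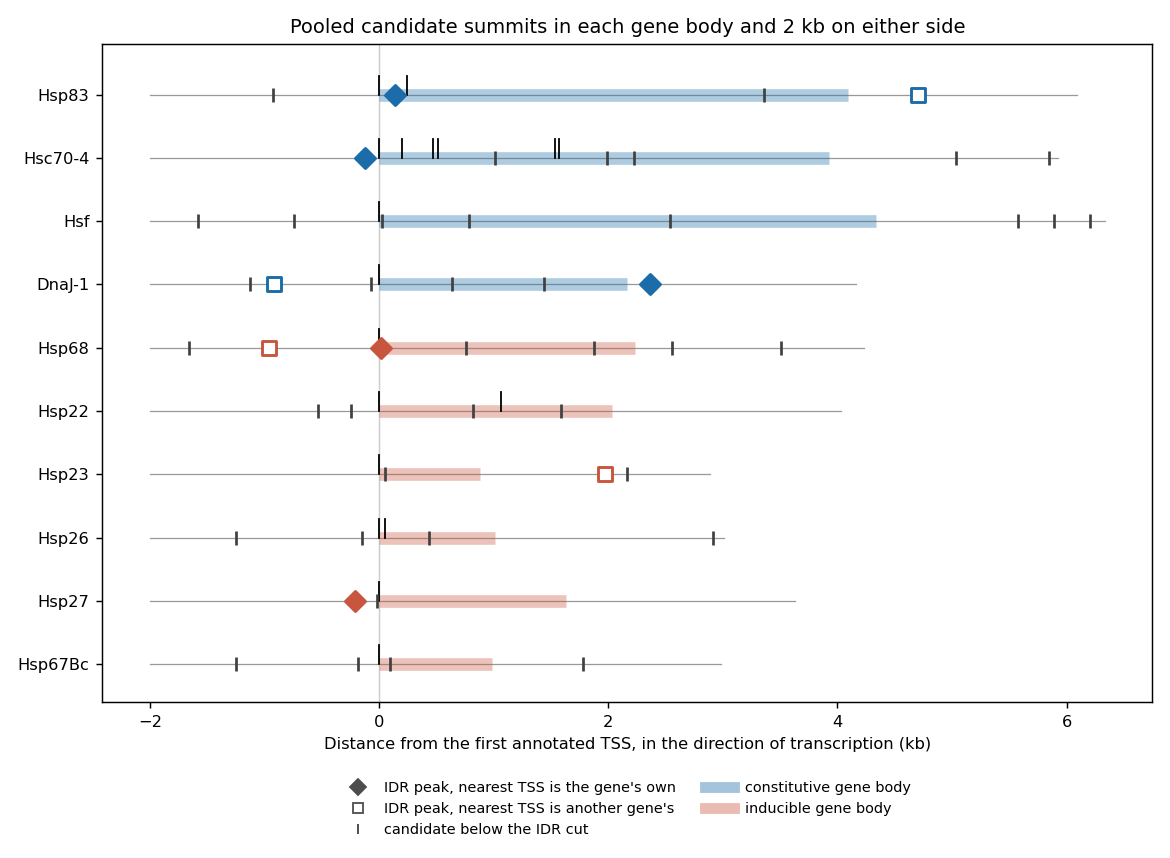
HmgD candidates along the 10 genes. The horizontal axis is the distance in kb from each gene's first annotated TSS in the direction of transcription, thick bars are gene bodies (blue constitutive, red inducible), tall black ticks above the bars are TSSs, diamonds are IDR peaks nearest to the gene's own TSS, open squares are IDR peaks nearest to another gene's TSS, and short dark ticks are pooled candidates below the IDR threshold. IDR peaks sit at or near the start of Hsp83, Hsc70-4, Hsp68 and Hsp27, while Hsf, Hsp22, Hsp26 and Hsp67Bc have only candidates below the threshold.

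Hsp83 (FBgn0001233, chr3L:3192969-3197059, + strand) carried an IDR peak between its 2 annotated TSSs. The summit at position 3193106 lay 137 bp downstream of the first TSS and 110 bp upstream of the second, in the 5′ untranslated part of the longer transcript, with a signal of 193.9 and pooled rank 890 of 30000. The matching candidate ranked 1880 in replicate 1, 689 in replicate 2 and 919 in replicate 3. All 3 replicates thus placed it among their 2964 strongest, and replicate summits at +81, +104 and +137 from the first TSS all fell between the 2 starts. This peak was 117 bp wide, where the other 7 were 404 bp wide, the common width of the list. The GAANNTTC match printed above starts 68 bp upstream of the second TSS, and a TATAAA match starts 30 bp upstream of it.

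A second IDR peak in the Hsp83 window had its summit 611 bp beyond the end of the gene and 39 bp upstream of the TSS of CG14966. Its signal was 150.6 and its ranks were 3142, 2444 and 1752 in replicates 1, 2 and 3. It therefore lies at the start of the neighbour and enters the count for Hsp83 only through the 2 kb margin. Inside the Hsp83 body the only other candidate lay in coding sequence, 3360 bp from the first TSS, at pooled rank 8468.

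Hsc70-4 (FBgn0266599, chr3R:15242687-15246614, + strand) has 6 annotated TSSs spread over 1569 bp, and its IDR peak stood upstream of the first. The summit lay at -119 with a signal of 140.8 and pooled rank 1940, and the matching candidates ranked 396 in replicate 1, 5573 in replicate 2 and 1183 in replicate 3. Replicate 1 thus had it near the top of its list and replicate 2 outside its 2964 strongest. The GAANNTTC match in the printed sequence starts at -157 and a TATAAA match at -27. A further candidate, in an intron 1011 bp downstream of the first TSS, had a signal of 97.4 and ranked 21671, 4675 and 3532 in the replicates, low in replicate 1 and higher in the others. The windows of the internal TSSs at +469 and +511 hold 3 alternating heat shock units in a row, the 2 pairs overlapping by sharing their middle unit.

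DnaJ-1 (FBgn0263106, chr3L:5750029-5752189, - strand) had 2 IDR peaks near it and a candidate below the IDR threshold at its own start. The first IDR peak lay 200 bp past the 3′ end, with a signal of 132.0 and ranks of 1818, 5328 and 3637 in replicates 1, 2 and 3. The second lay 920 bp upstream, inside the 5′ untranslated exon of Usp47, a ubiquitin protease gene transcribed the other way, 136 bp from the Usp47 TSS. Its signal was 184.6 and its ranks were 4570, 1558 and 749. So neither IDR peak of DnaJ-1 was within 500 bp of its TSS.

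The candidate at the DnaJ-1 TSS itself lay at -74 with a signal of 104.9 and pooled rank 3534, outside the 2964 kept. It ranked 1752 in replicate 1, 5915 in replicate 2 and 3013 in replicate 3, so 1 replicate of 3 had it among its 2964 strongest. The TATCGATA match in the printed DnaJ-1 sequence starts at -72, beside this summit. A GAANNTTC match starts at -7 and runs past the end of the printed stretch, where its bases are in lower case.

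Hsf (FBgn0001222, chr2R:18130303-18134634, - strand) was the constitutive member without an IDR peak, although its window held 8 pooled candidates, the most of any member. Its strongest candidate lay 785 bp downstream of the TSS in an intron, with a signal of 105.5 and pooled rank 3495. It ranked 5181, 7564 and 1394 in replicates 1, 2 and 3, so it was high in replicate 3 alone. A candidate in the 5′ untranslated exon at +25 had the opposite pattern, with rank 2608 in replicate 1, rank 2868 in replicate 2, no match in replicate 3 and a pooled rank of 10964. Each replicate thus had a candidate among its 2964 strongest at Hsf, but not at one shared place. The IDR peak closest to Hsf was 6064 bp away, 79 bp from the TSS of pAbp, which encodes the poly(A)-binding protein.

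Hsp68 (FBgn0001230, chr3R:24055080-24057310, - strand), an intronless gene, had an IDR peak at its start and another at the start of its neighbour. The summit at +20, in the 5′ untranslated sequence, had a signal of 117.0 and pooled rank 2844, the nearest of the member peaks to the IDR threshold. It had no match in replicate 1, rank 3092 in replicate 2 and rank 1425 in replicate 3. Replicate 1 listed no candidate within 500 bp of the Hsp68 TSS, so this peak rests on replicates 2 and 3. The printed sequence just upstream holds a run of overlapping heat shock units, in which the 3-unit pattern starts at -182, -177 and -172, and separate GAANNTTC matches at -86 and -53.

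The stronger peak in the Hsp68 window lay 964 bp upstream of its TSS and 13 bp upstream of the TSS of SMC1, which encodes a cohesin subunit and is transcribed the other way. Its signal of 211.7 (pooled rank 693) was the highest of the 8 member peaks, and its ranks of 667, 1068 and 884 placed it among the 2964 strongest in every replicate. Of the 8 peaks, 6 had a match in replicate 1, 8 in replicate 2 and 8 in replicate 3, beside 95.5%, 97.2% and 96.6% of all IDR peaks. The 2 without a match in replicate 1 were those at the start of Hsp68 and upstream of Hsp27.

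The 5 small heat shock members lie within 14184 bp at chr3L:9371511-9385694, the cluster at cytological position 67B. The span held 10 pooled candidates, of which 1 passed the IDR step. That peak lay between Hsp23 and Hsp27 with its summit at position 9383850, 213 bp upstream of the Hsp27 TSS and 1085 bp past the end of Hsp23 (Hsp27 FBgn0001226, chr3L:9384063-9385694, + strand; Hsp23 FBgn0001224, chr3L:9381882-9382765, + strand). Its signal was 144.2 and its pooled rank 1839. Hsp27 encodes a largely nuclear small heat shock protein and Hsp23 a cytosolic one.

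The Hsp27 upstream site was the strongest candidate of the cluster in every list, but its summit was not at one position. Replicate 1 had it at -79 with rank 1893, replicate 2 at -213 with rank 1328, and replicate 3 at -168 with rank 3802. The replicate 1 summit was nearer to a weaker pooled candidate at -14 (pooled rank 16707) and was matched to that, so the IDR peak itself had matches in replicates 2 and 3. The next strongest candidate of the cluster ranked 6017 in the pooled list and 10964, 5122 and 6139 in replicates 1, 2 and 3. The Hsp27 site thus stood ahead of the others most clearly in replicate 1 and least in replicate 3. The Hsp27 sequence printed above holds a GAGAG match and none of the heat shock pairs.

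**Figure D2:**
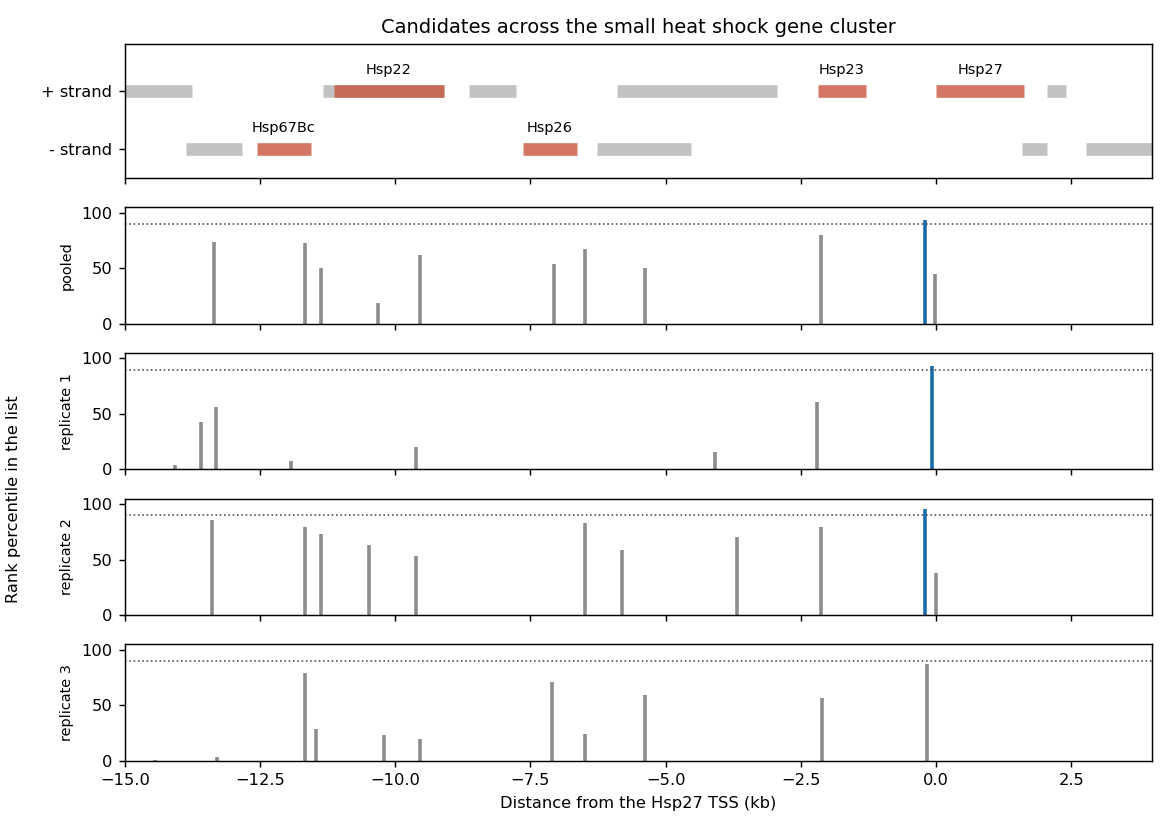
Candidates across the small heat shock cluster at 67B. The top panel shows genes on each strand (red members, grey other annotated genes), and the 4 panels under it show candidate summits of the pooled list and of replicates 1, 2 and 3; the horizontal axis is the distance from the Hsp27 TSS in kb, the height is the rank percentile within the list (100 is the strongest), the dotted line marks rank 2964, and blue lines are candidates at or above it. Only the site just upstream of Hsp27 reaches the line, in the pooled list and in replicates 1 and 2, and in replicate 3 it stands at 87.3.

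Hsp23 had a candidate of its own at +54, in its 5′ untranslated sequence, at pooled rank 6017. It ranked 10964, 6250 and 12905 in replicates 1, 2 and 3, below the 2964 strongest in each. Hsp23 is therefore counted with an IDR peak only because its 2 kb margin reaches the site upstream of Hsp27.

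Hsp26 (FBgn0001225, chr3L:9376418-9377427, - strand), a cytosolic small heat shock protein gene, had its strongest candidate 146 bp upstream of the first of its 2 TSSs, at pooled rank 9858. It had no match in replicate 1, rank 5122 in replicate 2 and rank 22617 in replicate 3. Replicates 2 and 3 thus differed widely here. The printed Hsp26 sequence holds 1 GAANNTTC, 1 TTCNNGAA and 3 GAGAG matches, and the window from 250 bp upstream to 50 bp downstream of the TSS holds 6 GAGAG matches, more than that of any other member TSS.

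Hsp22 (FBgn0001223, chr3L:9372931-9374964, + strand), whose product is mitochondrial, and Hsp67Bc (FBgn0001229, chr3L:9371511-9372497, - strand) lie head to head at the far end of the cluster. A candidate at +95 of Hsp67Bc, in its 5′ untranslated sequence, lay 529 bp upstream of the first Hsp22 TSS and had pooled rank 8189. It had no match in replicate 1, rank 6176 in replicate 2 and rank 6139 in replicate 3, so the replicates that held it gave like ranks. Hsp22 overlaps CG4456 on the same strand. The candidate 249 bp upstream of the first Hsp22 TSS was 40 bp upstream of the CG4456 TSS and had pooled rank 14911, and the one 250 bp upstream of the second TSS had pooled rank 24420. The nearest IDR peak to each of Hsp22, Hsp26 and Hsp67Bc was the Hsp27 site, 8886, 6423 and 11353 bp from the gene.

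The strongest candidate in each window, expressed as a rank percentile in which 100 is the top of the list, gave every gene a value in every replicate. Hsp68 stood at 97.6, 96.4 and 97.1 in replicates 1, 2 and 3, a mean of 97.0 ± 0.597 (SD, n = 3), set by the SMC1 peak. Hsp83 had 93.3, 97.7 and 96.9, a mean of 96.0 ± 2.33, and DnaJ-1 had 94.3, 94.8 and 97.5, a mean of 95.6 ± 1.71. The DnaJ-1 values came from candidates at -786, -980 and -920 from its TSS, not from the candidate at its start. Those of replicates 2 and 3 were the matches of the peak in Usp47. Hsp68, Hsp83 and DnaJ-1 had high values in their windows in all replicates and did not differ beyond their spread.

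Hsc70-4 had 98.6, 84.4 and 96.1, a mean of 93.0 ± 7.56. Its replicate 2 value was that of the candidate in its intron (rank 4675), not of its promoter peak, which ranked 5573 there. Hsf had 90.8, 90.4 and 95.4, a mean of 92.2 ± 2.75. Hsp23 and Hsp27 shared values of 93.3, 95.6 and 87.3, a mean of 92.1 ± 4.26, so Hsf was level with genes that had an IDR peak.

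The remaining small heat shock genes stood lower and varied more. Hsp67Bc had 56.2, 85.6 and 79.5 (73.8 ± 15.5), Hsp22 had 20.0, 79.4 and 79.5 (59.7 ± 34.3), and Hsp26 had 20.0, 82.9 and 71.4 (58.1 ± 33.5). The Hsp67Bc values of replicates 1 and 2 came from a candidate in an intron of the neighbour Fdx1. It lay 790 bp outside Hsp67Bc and 337 bp from the Fdx1 TSS. Replicate 1 gave the lowest value at all 3 genes, and for Hsp22 and Hsp26 it was the same candidate, inside Hsp22. The means of Hsp22 and Hsp26 fell below the median over all genes, 70.0 ± 1.00, but replicates 2 and 3 of both genes lay above it.

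The median over the 4 constitutive genes was higher than that over the 6 inducible genes in each list, by an amount that varied widely. It was 93.8 against 74.7 in replicate 1, 92.6 against 90.6 in replicate 2 and 96.5 against 83.4 in replicate 3, a mean difference of 11.4 ± 8.66 percentile points (SD, n = 3). In the pooled list it was 95.1 against 83.6. The values of the classes overlapped in every list, and Hsp68 was above at least 1 constitutive gene in each. With 3 replicates an exact sign-flip test (two-sided) cannot give a p below 0.25, and members that share peaks are not independent, so no test was made. With Hsp83 and DnaJ-1 counted as inducible the pooled difference turned to -2.93 and the mean over replicates fell to 0.668, so the direction rests on where these 2 genes are placed.

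Among the 2964 strongest candidates of each replicate, the constitutive genes had 4 of 4 in replicate 1, 3 of 4 in replicate 2 and 4 of 4 in replicate 3. The inducible genes had 3 of 6, 3 of 6 and 1 of 6. Over all 10 members the counts were 7, 6 and 5, against 28.6%, 26.8% and 26% of all genes in the same lists. Hsp68 was the inducible gene left in replicate 3, where the Hsp27 site ranked 3802.

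Restricting the candidates to 500 bp around each gene's own TSS, a choice made after the values were seen, removed the peaks at SMC1, Usp47 and CG14966. Hsp83 kept its 3 values and Hsc70-4 its own, and DnaJ-1 then had 93.8, 80.3 and 90.0 in replicates 1, 2 and 3. Hsp68 had no candidate in replicate 1, 89.7 in replicate 2 and 95.3 in replicate 3. Hsp23 lost the site upstream of Hsp27 and had 61.1, 79.2 and 57.0 in replicates 1, 2 and 3. Hsp67Bc stood at 7.72 in replicate 1, Hsp26 had no candidate there, and Hsf had none in replicate 3. The medians were 93.6 against 13.9, 87.4 against 81.2 and 93.0 against 75.5, constitutive against inducible, where the median over all genes was 0 in each replicate. The difference of 34.5 ± 39.5 was smaller than its spread over replicates.

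**Figure D3:**
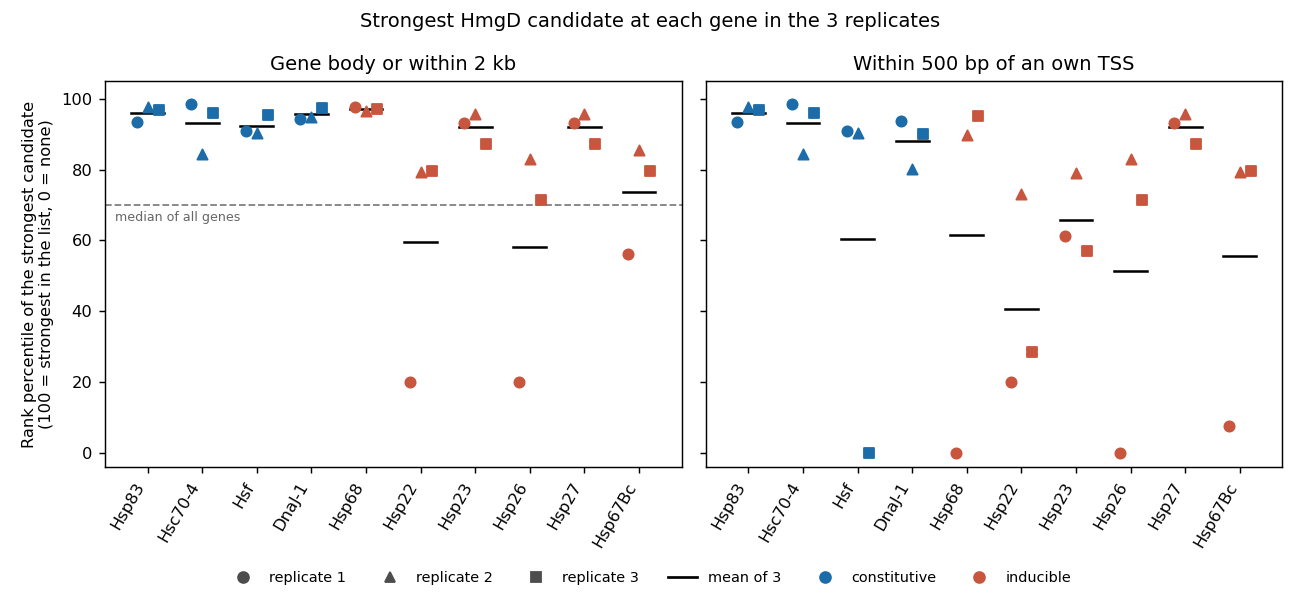
Rank percentile of the strongest candidate at each member in each replicate, in the gene body or within 2 kb (left) and within 500 bp of an own TSS (right). The vertical axis is the percentile within the replicate's list (100 is the strongest, 0 is no candidate), circles, triangles and squares are replicates 1, 2 and 3, bars are means of 3, blue genes are constitutive, red genes are inducible, and the dashed line in the left panel is the median over all genes, 70.0; in the right panel that median is 0 in every replicate. Hsp83, Hsc70-4 and the inducible Hsp27 stand at 84.4 or above in every replicate of both panels. Replicate 1 falls to 20.0 at Hsp22 and Hsp26 on the left.

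Candidates of any strength were counted in each window. Hsf had 8, Hsp68 had 7, Hsc70-4 and DnaJ-1 had 6 each, Hsp83, Hsp22, Hsp26 and Hsp67Bc had 4 each, Hsp23 had 3 and Hsp27 had 2, against a median of 2 per gene over all genes and 3 over protein-coding genes. Hsp27 was thus at the median of all genes and Hsp23 at that of protein-coding genes. Per kb of window the members ranged over 0.355 to 1.12, against a median of 0.326 over all genes and 0.354 over protein-coding genes. Hsp27, which has the IDR peak of the cluster, had the lowest density, level with protein-coding genes, and Hsp68 the highest. Of the 34 candidates not kept, 15, 26 and 27 had a match in replicates 1, 2 and 3, beside 46.2%, 60.6% and 64.5% of all pooled candidates not kept. The members' shares were 44.1%, 76.5% and 79.4%.

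Heat shock element pairs were found within 100 bp of 4 of the 8 IDR summits, all 4 as GAANNTTC, a word that occurred at 5.26% of all IDR summits and 4.81% of the candidates not kept. The 4 were the Hsp83 peak between its TSSs, the Hsc70-4 promoter peak, the peak past the 3′ end of DnaJ-1 and the Hsp68 start. The 3 peaks at neighbouring genes and the Hsp27 peak had no match in that window. TTCNNGAA and the 3-unit pattern had no match near any of the 8, where 5.26% and 0.236% of all IDR summits had one. With the window widened to 200 bp, both appeared once and GAANNTTC was found at 5 of the 8. GAGAG was found at 2 of 8 (29.6% of all IDR summits), at the Usp47 and Hsp27 sites, and TATAAA at 3 of 8 (19.3%). These are letters in a window, not measured binding of HSF or GAGA factor. GC content within 100 bp of the 8 summits had a median of 39.3% (36.3% to 52.7%), against 41.8% over all IDR summits and 48.3% over candidates not kept.

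Promoters, taken as 250 bp upstream to 50 bp downstream of each TSS, held GAANNTTC at 3 of 4 constitutive genes (5 of 10 TSSs) and 5 of 6 inducible genes (6 of 8 TSSs), against 9.34% of 19607 TSSs over all genes. The genes without it were Hsf and Hsp27. TTCNNGAA was found at 2 of 10 constitutive and 4 of 8 inducible TSSs (7.61% of all TSSs), and the 3-unit pattern at 2 of 10, both of Hsc70-4, and 1 of 8, that of Hsp68 (0.418%). GAGAG was found at 3 of 10 constitutive TSSs, all of Hsc70-4, and 5 of 8 inducible TSSs (33.1%). By gene, TTCNNGAA and GAGAG were each found at 1 of 4 constitutive and 3 of 6 inducible genes. Windows of TSSs close together overlap, so the same match can count at 2 TSSs, as for Hsp26 and Hsc70-4. TATCGATA was found at 2 of 10 constitutive TSSs, of Hsp83 and DnaJ-1, and at 0 of 8 inducible TSSs (7.98%). So the heat shock pair GAANNTTC was frequent in both classes. Its presence in these windows did not follow the IDR peaks: Hsp22, Hsp26 and Hsp67Bc had it without a peak, and Hsp27 had a peak without it. The Hsp27 summit at -213 lies near the upstream edge of its window, so a pair farther upstream would not be counted here.

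A TATAAA match started between -35 and -22 at 8 of 10 members, an interval chosen after the positions were seen. The constitutive genes with it were Hsp83, at its second TSS, and Hsc70-4, 2 of 4, and the inducible genes were all 6. The share was 8.30% of protein-coding genes. Hsf and DnaJ-1 lacked it. Of the 8 members with such a match, Hsp83, Hsc70-4, Hsp68 and Hsp27 had an IDR peak within 500 bp of a TSS. The other 4, Hsp22, Hsp23, Hsp26 and Hsp67Bc, had none there. With 8 of 10 members matched and the interval chosen from their own positions, these counts cannot show a link between match and peak.

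Other genes of the chaperone system, from a list of 48 symbols of which 47 were matched, had an IDR peak in the window at 18 of 47 (38.3%) and within 500 bp of a TSS at 12 of 47 (25.5%), beside 60% and 40% of the members and 27.4% and 15.5% of all genes. All 6 genes of the Hsp90 family and its co-chaperones had one in the window, as did 4 of 8 J-domain genes, 2 of 3 exchange factor and ligase genes, 3 of 12 chaperonin genes, 2 of 11 Hsp70 family genes and none of 6 further small heat shock genes. Within 500 bp of a TSS the counts in the same order of groups were 4 of 6, 3 of 8, 2 of 3, 1 of 12, 1 of 11 and 0 of 6. No test between these groups was made.

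The strongest of these peaks was in the window of Stip1, the Hsp70-Hsp90 organising protein, with a signal of 255.2 and ranks of 164, 421 and 1612 in replicates 1, 2 and 3, but its nearest TSS was that of Pi3K21B. The J-domain gene mrj followed with 245.2 at -303 (ranks 875, 236 and 920), then the Hsp90 co-chaperone gene Sgt1 with 226.0 at -127 (933, 398 and 627). The Hsp90 co-chaperone gene p23 had 218.4 at +9 (1392, 1364 and 292). P58IPK, an endoplasmic reticulum J-domain gene, also had an IDR peak within 500 bp of its own TSS. Its strongest peak had 216.5 with CG8312 as the nearest TSS (1425, 477 and 1006). These 5 were higher in signal than the Hsp83 peak of 193.9 and were found in all 3 replicates.

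The heat shock RNA gene Hsromega had an IDR peak at -150 with a signal of 203.9, matched at ranks 1379 and 955 in replicates 1 and 2 and without a match to that summit in replicate 3. The strongest replicate 3 candidate in its window lay at -5 from a TSS with rank 320, the strongest of the 3 replicates. Each offset is from the nearest TSS of the gene, so the distance between these summits is not given by them. The 6 Hsp70 copies, the most strongly heat-induced fly genes, had no IDR peak, and their best pooled ranks were 12240 at Hsp70Ab, 22725 at Hsp70Ba, 26012 at Hsp70Aa and 29602 at Hsp70Bc. Hsp70Bb and Hsp70Bbb had no pooled candidate in the window. These copies are nearly identical, so reads from them are hard to assign to 1 copy and a low rank there is uncertain. All 6 copies hold the 3-unit heat shock pattern in their promoters, as does DnaJ-H.

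**Figure D4:**
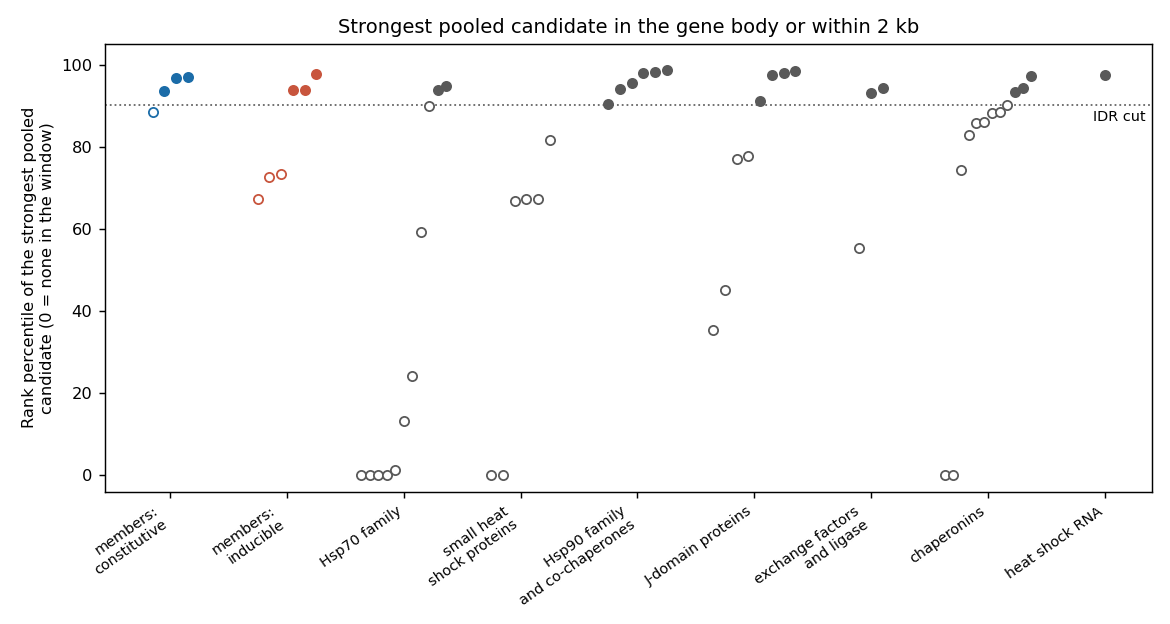
Strongest pooled candidate at the members and at the other chaperone genes, by group. The vertical axis is the rank percentile in the pooled list (100 is the strongest, 0 is no candidate in the window), each point is 1 gene, filled points have an IDR peak in the gene body or within 2 kb, and the dotted line is the lowest percentile of the IDR list. All 6 points of the Hsp90 family and co-chaperones are filled, 6 of 10 members are filled, and the 6 further small heat shock genes lie under the line.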

How the data were processed

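The data were ChIP-seq peak lists of 3 biological replicates of 1 group. The authors, per the deposited file descriptions, derived candidate lists in narrowPeak format for each replicate and for the replicates pooled, with a control, and a list passing the IDR step. The signal per peak is the authors' own deposited value, whose scale differs between lists, so it was read only as a rank within a list. Which aligner, peak caller and IDR threshold they used is not given in the sources used here. Lists on dm3 were not used, and no coordinates were converted.

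Here the dm6 lists were set against the Ensembl release 115 annotation, without transposable elements, and the RefSeq Release 6 sequence, in which 99.8% of annotated start codons read ATG. A summit counted for every gene whose body or 2 kb margin held it. A rank percentile is the share of a list at or below a peak's rank. A summit was matched to another list where each was the other's nearest, at most 200 bp apart. Words were searched on both strands. The pair words are their own reverse complements, so both strands give the same matches. The 3-unit pattern is GAANNTTC and TTCNNGAA, in either order, sharing the middle unit, and each of its matches also counts for both pairs.

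The members, classes, words and lists were chosen with earlier results of these data known, so counts are descriptions beside the same counts over all genes. The named genes are the 10 members and the genes with the nearest TSS to their peaks. Of the other chaperone genes, they are the 6 with the highest IDR signal, the Hsp70 copies and Hsromega. DnaJ-H, pAbp, CG4456, Fdx1, Pi3K21B and CG8312 were named after values were seen. Of the 48 other symbols, 47 were matched, 2 of them (Hsp110 and Stip1) through RefSeq synonyms. To leave out a replicate, the IDR list was exchanged for pooled candidates matched among the 2964 strongest of both remaining replicates. Alternatives covered the gene window, the promoter distance, the assignment to the nearest TSS, the peak set, the match distance, the word window and the classes. Python 3.11.15, pandas 2.3.3, numpy 2.4.6 and matplotlib 3.10.9 were used, and the scripts were tested on simulated data.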

Additional observations from a re-analysis of the deposited data

How the results depend on the processing

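Over 77 alternatives, 41 left a count within 1.5 times its value or a class difference within 8.66 points, its SD over replicates, 35 moved it further and 1 reversed it. With the gene body alone, the window counts were 2 of 10 members (1 constitutive, 1 inducible) and 5 of the 47 other chaperone genes, where 7.60% of all genes had a peak. With the 1482 IDR peaks of higher signal they were 3 members (1 inducible) and 9 other genes (15.9% of all genes), and 1 member within 500 bp of a TSS (8.53%). With the 1297 pooled candidates matched among the strongest of all 3 replicates they were 3 members (1 inducible) and 8 other genes (14.4%). Leaving out each replicate gave sets of 1541 to 1808 peaks (16.7% to 19.5% of all genes), with 3 to 4 members, 1 inducible each time, 11 other genes each time, and 1 to 2 members within 500 bp of a TSS (8.86% to 10.5%). These sets are smaller by construction. Without replicate 3, the Hsp27 site dropped out through summit matching, although it ranked 1893 in replicate 1 and 1328 in replicate 2.

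With Hsp83 and DnaJ-1 classed as inducible, the counts were 1 of 2 constitutive and 5 of 8 inducible genes. The class difference then reversed to -2.93 in the pooled list and was 0.668 ± 8.09 over replicates. Taking the candidate nearest to a TSS gave 21.0 pooled and 28.0 over replicates. Over replicates the difference was 30.8 in the gene body, 20.2 with 1 kb, 5.68 ± 6.52 with 5 kb and 26.5 with the nearest TSS only, and 7.54 to 16.1 on leaving out a replicate. The pooled difference was 20.0 in the gene body, 18.4 with 1 kb and 8.17 with 5 kb. With candidates within 500 bp of a TSS, chosen after seeing the data, the difference was 14.6 in the pooled list and 34.5 ± 39.5 over replicates. The cause of these moves was not tested. No paired analysis was possible because there was 1 group. The unknown depth and the fixed list lengths limit what a missing candidate means.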
